A study of Mus musculus with 2 samples.

Results

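The Mir181 genes of the mouse are a family of 6 microRNA genes, Mir181a-1, Mir181a-2, Mir181b-1, Mir181b-2, Mir181c and Mir181d. They were chosen by name and not by their values, and all 6 were found among the 1973 microRNA genes counted. MicroRNA sequencing had been done on total RNA from liver of newborn B6NCrl mice on postnatal day 0, with inserts below 30 bases. There were 2 livers, 1 library each, from pup 1 and pup 2 of 1 pregnant female. The labels name no treatment, no mutation and no other tissue or age, give the same donor identifier for both livers, and state that sex was not collected. The data therefore form 1 group of 2 replicates, and the comparisons possible were between the genes, between their 3 genomic clusters and between the pups.

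A microRNA gene is transcribed as a long primary transcript, from which a hairpin is cut. The hairpin is trimmed to a duplex of a 5p and a 3p arm, and 1 arm is usually kept by an Argonaute protein to repress messenger RNAs. Targets are recognised mainly through the seed, bases 2 to 8 of the mature strand. The miR-181 family is known from blood cell development, where it favours B lymphocytes and tunes the sensitivity of developing T cells to antigen, and it has also been studied in endothelium and in liver cancer. The liver is a site of blood formation before birth and around it, and whole liver holds hepatocytes, blood cells, endothelium and stroma together. In such a bulk sample, fewer cells of a type and less RNA per cell cannot be told apart.

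The mature sequences are shown first because they decide which reads could be counted on which gene. RefSeq entries on GRCm38.p6 were matched for all 6 genes, and they hold 12 mature arms with 10 distinct sequences. The 5p arms are given 5′ to 3′ with the seed in capitals.
miR-181a-5p, from Mir181a-1 and Mir181a-2: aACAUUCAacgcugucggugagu
miR-181b-5p, from Mir181b-1 and Mir181b-2: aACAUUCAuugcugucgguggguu
miR-181c-5p, from Mir181c: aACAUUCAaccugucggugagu
miR-181d-5p, from Mir181d: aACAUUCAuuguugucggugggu
All 4 carry the seed ACAUUCA, and no gene outside the family has a mature sequence with this seed in the RefSeq table. Counted from 1 at the 5′ end, miR-181b-5p is turned into miR-181d-5p by C12U and the loss of the last base. MiR-181a-5p and miR-181c-5p are 1 edit apart, a single missing base in miR-181c-5p. From miR-181a-5p to miR-181b-5p the changes are A9U, C10U and A21G, with 1 more base at the end of miR-181b-5p. The family thus holds an a-like pair, a and c, and a b-like pair, b and d.

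The 3p arms differ more, and they are shown because each of them belongs to 1 gene only. The seed is again in capitals.
miR-181a-1-3p: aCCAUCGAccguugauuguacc
miR-181a-2-3p: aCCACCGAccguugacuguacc
miR-181b-1-3p: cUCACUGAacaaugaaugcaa
miR-181b-2-3p: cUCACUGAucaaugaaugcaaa
miR-181c-3p: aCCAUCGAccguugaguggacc
miR-181d-3p: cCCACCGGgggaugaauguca
They fall into 4 seeds. The seed CCAUCGA is shared by Mir181a-1 and Mir181c, the seed UCACUGA by Mir181b-1 and Mir181b-2, and CCACCGA of Mir181a-2 and CCACCGG of Mir181d occur once each. Between the 3p arms of Mir181a-1 and Mir181a-2 the changes are U5C and U16C, and the first of these lies in the seed. No other gene of the RefSeq table carries any of these 4 seeds.

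The 6 genes lie in 3 clusters of 2 genes. On mm10 with GENCODE M21, Mir181a-1 (ENSMUSG00000065565.1, chr1:137966455-137966541, plus strand) is followed after 97 bases by Mir181b-1 (ENSMUSG00000065458.1, chr1:137966639-137966718). Both sit in an intron of the noncoding host transcript Gm4258 on the same strand. All 80 bases of Mir181b-1, but only the last 11 bases of Mir181a-1, also overlap the exon of the long noncoding RNA A430106G13Rik. Mir181a-2 (ENSMUSG00000065423.1, chr2:38852735-38852810, plus strand) and Mir181b-2 (ENSMUSG00000065578.1, chr2:38853830-38853918) are 1019 bases apart. They lie within introns of Nr6a1, an orphan nuclear receptor gene transcribed from the opposite strand, and Mir181b-2 also overlaps the exon of Gm44144 on the opposite strand, whose annotation still awaits experimental evidence. Mir181d (ENSMUSG00000076338.1, chr8:84178716-84178787) and Mir181c (ENSMUSG00000065483.1, chr8:84178873-84178961) lie on the minus strand, 85 bases apart, in an intron of a transcript of Nanos3, a gene known for its role in germ cells. In each cluster the a-like gene comes first in the direction of transcription and the b-like gene second. The identifier of Mir181c has another version in M21 than in the counted table, so the interval that was counted may differ from the one given here.

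The hairpins of the duplicated genes are printed because the 5p arm, in capitals, is the stretch that they have in common.
Mir181a-1: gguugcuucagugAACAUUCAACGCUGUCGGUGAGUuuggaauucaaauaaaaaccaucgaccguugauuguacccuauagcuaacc
Mir181a-2: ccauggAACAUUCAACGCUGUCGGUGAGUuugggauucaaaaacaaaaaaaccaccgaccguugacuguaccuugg
Mir181b-1: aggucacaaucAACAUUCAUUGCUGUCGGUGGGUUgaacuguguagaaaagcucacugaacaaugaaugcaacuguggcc
Mir181b-2: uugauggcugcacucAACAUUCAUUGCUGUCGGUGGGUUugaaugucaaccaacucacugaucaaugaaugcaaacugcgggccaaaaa
Together with the flanking bases, the run shared by Mir181a-1 and Mir181a-2 was 28 bases long, with 1 base before the arm and 4 after it. The run shared by Mir181b-1 and Mir181b-2 was 26 bases long, with 2 bases before the arm and 0 after it. A read wholly inside such a run matches both hairpins, and reads that mapped to several loci were counted on no gene. None of the windows of 20 bases in the 3p arms of the 6 genes occurred in any other of the 1894 hairpins with a sequence, and neither did any window in the 5p arms of Mir181c and Mir181d. Of all 1894 hairpins, 923 (48.7%) share a window of 20 bases with a hairpin elsewhere, as the 4 duplicated Mir181 genes do. Of the 312 hairpins detected, meaning at least 10 counts in both libraries, 65 (20.8%) do so. Detection itself rests on uniquely mapped reads, and Mir181b-1 was not among the detected.

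**Figure D1:**
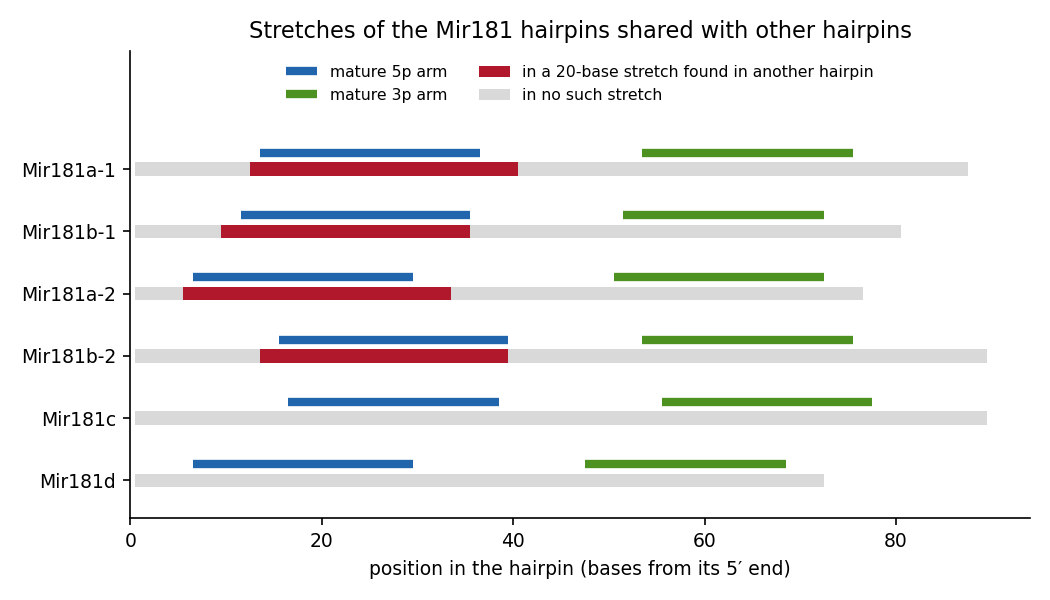
Each bar is 1 hairpin along its length in bases, with the mature 5p arm in blue and the 3p arm in green above it. Red parts lie in a stretch of 20 bases found in another hairpin and cover the whole 5p arm of the 4 duplicated genes, while Mir181c and Mir181d have none.

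The libraries held 3422622 microRNA counts in pup 1 and 4538427 in pup 2, counted on the strand of the gene. Levels are given per 1000000 of these counts (CPM), with mean ± SD over n = 2 pups, and were not divided by hairpin length, since each short insert stands for 1 mature strand. Intervals are exact 95% intervals and cover counting error only, as PCR copies of a molecule are read as separate counts. Reads at several loci numbered 1520712 in pup 1 and 2044197 in pup 2, which is 299 and 317 times the counts of the whole Mir181 family. How many of them were miR-181a-5p or miR-181b-5p is not recorded, so the values of the 4 duplicated genes leave out an unknown number of reads of their 5p arm. Hepatocyte microRNAs marked the tissue as liver, with all 5 of the listed genes detected and sums of 357809 and 369463 CPM. Mir122 alone gave 342309.5 and 354939.5 CPM of these sums. Of the other listed cell types, 5 of 6 leukocyte genes with an entry were detected (10399 and 9514 CPM), 3 of 3 erythroid (5309 and 5150 CPM), the endothelial Mir126a (65978 and 69174 CPM) and 4 of 5 mesenchymal genes (14991 and 15784 CPM). Most of the leukocyte sums came from Mir223 (8567 and 7846 CPM), and most of the mesenchymal sums from Mir143 (13832 and 14617 CPM). Of the neural genes, 3 of 6 with an entry were detected (112 and 126 CPM), with Mir128-1 at 84.7 and 92.1 CPM, above the level of Mir181a-2, and with Mir124a-1 and Mir9-2 at 0 counts. Of the muscle genes, 1 of 4 was detected, Mir206 at 136 and 1004 CPM, while Mir1a-1, Mir133a-1 and Mir133a-2 were at 0. For uniquely mapped reads, a count of 0 allows up to 0.877 CPM in pup 1 and 0.661 CPM in pup 2. It sets no limit on reads at several loci, so a gene with a copy elsewhere may be expressed and still be at 0.

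The first question was how abundant the family was in newborn liver and which genes carried it. By uniquely mapped reads the family was of moderate abundance, and Mir181c gave nearly as many counts as the other 5 genes together. The family total leaves out an unknown number of 5p reads of the duplicated genes, so the part of each gene in the mature strands is not known. The 6 genes summed to 5090 counts in pup 1 and 6441 in pup 2, or 1487 and 1419 CPM. This is 0.149% (0.145 to 0.153) of microRNA counts in pup 1 and 0.142% (0.138 to 0.145) in pup 2, a mean of 0.145% ± 0.00480. The sums of the leukocyte list were 6.99 and 6.70 times those of the Mir181 genes, and the sums of the erythroid list were 3.57 and 3.63 times. The part that any of these cell types had in the Mir181 counts was not tested. No read was counted on the opposite strand of any of the 6 genes in either library.

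Mir181c, the first gene of the chromosome 8 cluster, had 2402 counts in pup 1 and 3035 in pup 2. Its level was 702 CPM in pup 1 and 669 CPM in pup 2, a mean of 685 ± 23.4 CPM, and ranked 88 among all genes. It made up 47.2% of the family in pup 1 and 47.1% in pup 2. Both pups therefore had close to the same level and the same share. Mir181d, the second gene of that cluster, had 1047 and 1226 counts, or 306 and 270 CPM, with a mean of 288 ± 25.3 CPM and rank 131. Reads of both arms of these genes can be placed uniquely among hairpins, so their counts can hold the 5p and the 3p arm, which the table does not separate.

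Mir181a-1, whose cluster on chromosome 1 is the one best known from T cell development, had 1049 counts in pup 1 and 1569 in pup 2. This is 306 and 346 CPM, a mean of 326 ± 27.7 CPM with rank 127. Mir181b-1, its neighbour, had 11 counts in pup 1 and 5 in pup 2, or 3.21 CPM (1.60 to 5.75) and 1.10 CPM (0.358 to 2.57). It was the only member below 10 counts in 1 of the libraries and ranked 339. Hence 5 of the 6 members were detected by the rule of at least 10 counts in both libraries. Given the common 5p arm, these values do not measure how much miR-181b-5p the chromosome 1 gene made.

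The genes on chromosome 2 were weaker than the leading genes of the other clusters. Mir181b-2 had 439 counts in pup 1 and 384 in pup 2, or 128 and 84.6 CPM, with a mean of 106 ± 30.9 CPM and rank 179. Mir181a-2 had 142 and 222 counts, or 41.5 and 48.9 CPM, with a mean of 45.2 ± 5.25 CPM and rank 205. The b-like gene was the higher one here in both pups, whereas the a-like gene was the higher one in both other clusters. Summed over the genes with the same 5p sequence, counts on the a genes were 348 and 395 CPM and those on the b genes 131 and 85.7 CPM. Reads wholly inside the shared 5p runs are not in these sums, so the sums are not levels of miR-181a-5p or miR-181b-5p.

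**Figure D2:**
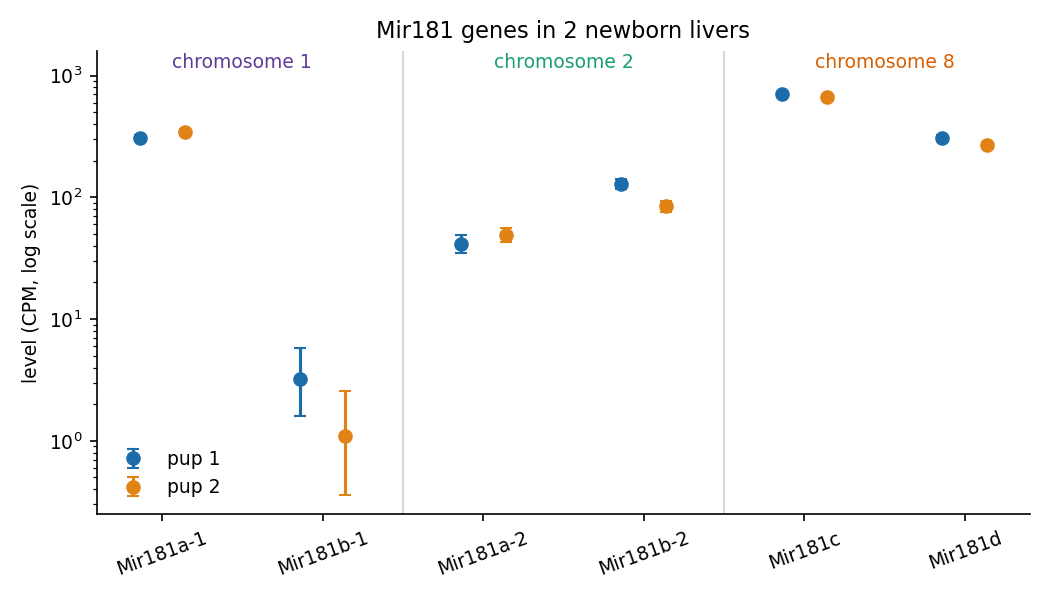
Points are the levels of the 6 genes in CPM on a log scale, pup 1 left of pup 2, with exact Poisson 95% intervals. Mir181c is highest at 702 and 669 CPM and Mir181b-1 lowest at 3.21 and 1.10 CPM, and the distance between these genes is larger than that between the pups for any gene.

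Ordered by mean level, the genes ran Mir181c, Mir181a-1, Mir181d, Mir181b-2, Mir181a-2 and Mir181b-1. Mir181c was 2.29 times Mir181a-1 in pup 1 and 1.93 times in pup 2, a gap larger than the sum of their SDs. Mir181a-1 and Mir181d were not separated, because their ratio was 1.00 in pup 1 and 1.28 in pup 2 and their mean gap was smaller than the sum of the SDs. Divided by hairpin length and scaled to the mean length, their order turned round, with 308 CPM for Mir181a-1 and 329 CPM for Mir181d. Mir181d was 2.38 and 3.19 times Mir181b-2, and Mir181b-2 was 3.09 and 1.73 times Mir181a-2, both in the same direction in each pup. Mir181a-2 was 12.9 and 44.4 times Mir181b-1, a ratio that rests on the 11 and 5 counts of Mir181b-1. The smallest two-sided p that an exact sign-flip permutation test can reach with 2 pups is 0.5, and these statements rest on sizes and spread.

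Genes nearest in level were taken as the next above and the next below in the order of mean CPM over the 2 pups among detected genes. Mir181c stood between the stromal microRNA Mir214 (702 and 697 CPM) and Mir29a (726 and 637 CPM), which is known for repressing collagen genes. Mir181a-1 stood between Mir328 (318 and 338 CPM) and the epithelial Mir200a (336 and 314 CPM). Mir181d stood between Mir221 (306 and 331 CPM) and Mir874 (266 and 271 CPM). Mir181b-2 stood between Mir1306 (104 and 113 CPM) and Mir493 (99.05 and 108 CPM), and Mir181a-2 between Mirlet7c-2 (47.9 and 43.6 CPM) and Mir26a-2 (48.2 and 39.0 CPM). The means of each member and its neighbours differed by less than the sum of their SDs, with Mir181b-1 left out as not detected.

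The second question was how the family divided among its 3 clusters. The Mir181c/Mir181d cluster on chromosome 8 held the largest part in both pups, then the cluster on chromosome 1 and last that on chromosome 2. Mir181c/Mir181d had 1008 and 939 CPM and made up 67.8% (66.5 to 69.0) of the family in pup 1 and 66.2% (65.0 to 67.3) in pup 2. Mir181a-1/Mir181b-1 had 310 and 347 CPM and made up 20.8% (19.7 to 22.0) in pup 1 and 24.4% (23.4 to 25.5) in pup 2. Mir181a-2/Mir181b-2 had 170 and 134 CPM and made up 11.4% (10.6 to 12.3) in pup 1 and 9.41% (8.71 to 10.1) in pup 2. The order was the same in both pups, and no cluster's range over the pups overlapped another's.

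Set against each other, the chromosome 8 cluster was 3.25 times the chromosome 1 cluster in pup 1 and 2.71 times in pup 2, and 5.94 and 7.03 times the chromosome 2 cluster. The chromosome 1 cluster was 1.82 and 2.60 times the chromosome 2 cluster. The chromosome 8 genes are the ones whose 5p arms share no window of 20 bases with another annotated hairpin, and the gap to the other clusters is one of uniquely mapped reads, not of mature miR-181 strands. Between the pups, the counting intervals of the share overlapped for chromosome 8 and did not overlap for chromosomes 1 and 2.

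**Figure D3:**
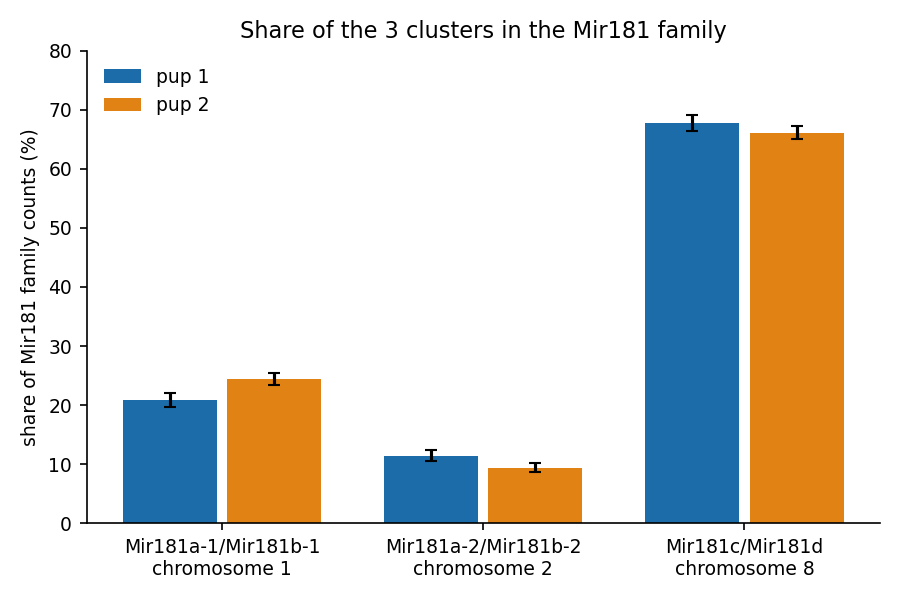
Bars give the share of Mir181 family counts in percent for each cluster, pup 1 left of pup 2, with exact Clopper-Pearson 95% intervals. The chromosome 8 cluster holds 67.8% and 66.2%, above chromosome 1 at 20.8% and 24.4% and chromosome 2 at 11.4% and 9.41%.

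The third question was how the 2 genes of a cluster related to each other. The genes of a cluster lie on the same strand and within 1184 bases of each other, and in each cluster the genes were at least 2.31-fold from equal counts, taking the geometric mean of the pups. Mir181c was 2.29 times Mir181d in pup 1 (2.13 to 2.47) and 2.48 times in pup 2 (2.32 to 2.65), and these intervals overlapped. Mir181a-2 was 0.323 times Mir181b-2 in pup 1 (0.266 to 0.392) and 0.578 times in pup 2 (0.488 to 0.684), and these did not overlap. Mir181a-1 was 95.4 times Mir181b-1 in pup 1 (53.1 to 192) and 314 times in pup 2 (134 to 968), with overlapping intervals.

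These ratios were set beside 18 other 2-gene clusters, of which 15 had both genes detected. Some of these hold a gene with a mature strand shared with another locus, such as Mir30c-1, Mir30c-2, Mir29b-1 and Mir199a-2. Reads of such a strand at several loci are on no gene, so all these ratios are of uniquely mapped reads. How far the missing reads shaped the ratios was not tested. The other clusters lay between 1.54-fold and 439-fold from equal counts, with a median of 14.997-fold, taking the geometric mean of the pups. The Mir181c/Mir181d pair was 2.38-fold and the Mir181a-2/Mir181b-2 pair 2.31-fold from equal, with 3 of the 15 closer to equal than either of them. The Mir181a-1/Mir181b-1 pair was 173-fold from equal, and 13 of the 15 were closer, but Mir181b-1, unlike the genes of the 15, was not detected. From pup to pup, the ratios of the other clusters moved by 1.01-fold to 1.64-fold, with a median of 1.19-fold. Mir181c/Mir181d moved by 1.08-fold, less than all but 2 of them, and Mir181a-2/Mir181b-2 by 1.79-fold, more than all 15. Mir181a-1/Mir181b-1 moved by 3.29-fold, on the 11 and 5 counts of Mir181b-1. This pair fails the detection rule that the 15 passed, so its place among them is not a like comparison. Mir29b-2/Mir29c, left out of the 15 by that rule with 3 and 10 counts of Mir29b-2, moved by 3.05-fold. These ratios describe 2 libraries, and no test of the differences between clusters was made.

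**Figure D4:**
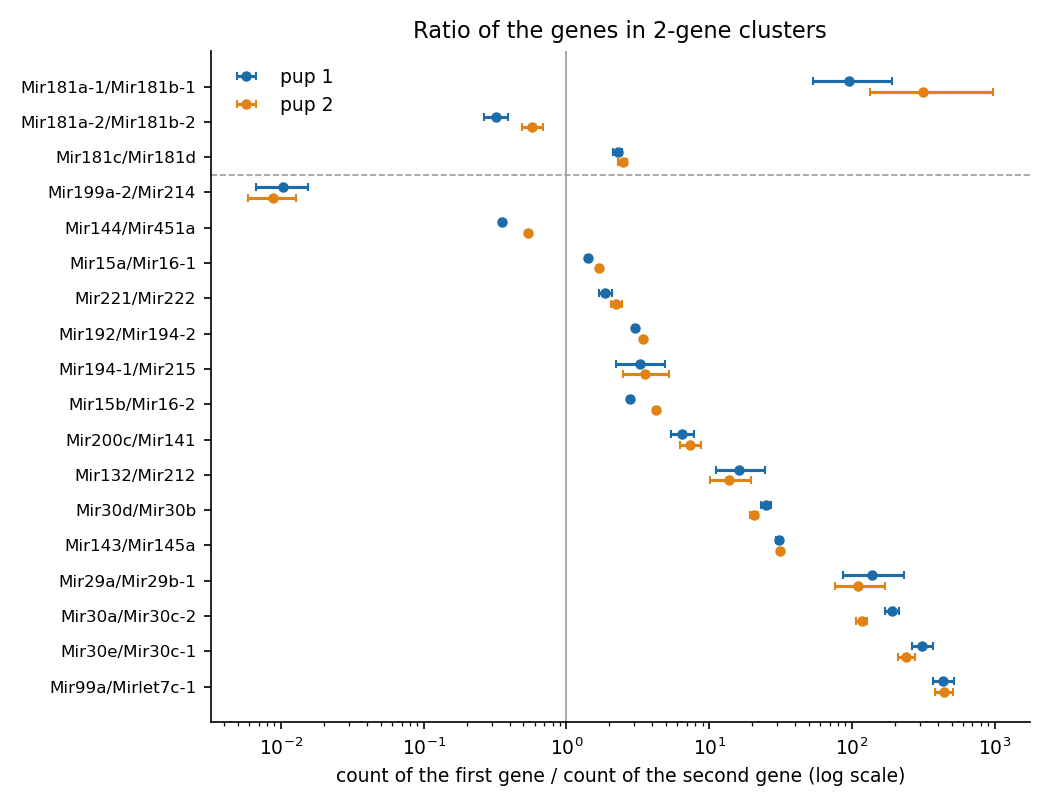
Each line is a 2-gene cluster, with the count of the first gene over the second on a log scale, pup 1 above pup 2, and exact 95% intervals. The Mir181 clusters are above the dashed line, with Mir181c/Mir181d at 2.29 and 2.48, Mir181a-2/Mir181b-2 at 0.323 and 0.578, and Mir181a-1/Mir181b-1 at 95.4 and 314 with wide intervals.

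Genes that share a guide strand but lie at different loci were compared in the same way. Mir181a-1 had 7.39 and 7.07 times the counts of Mir181a-2, and Mir181b-2 had 39.9 and 76.8 times the counts of Mir181b-1. Of 14 other such pairs of loci, 8 had both genes detected, and the higher gene exceeded the lower by 2.37-fold to 82.7-fold, with a median of 5.95-fold. The ratio was below that of the a genes in 5 of the 8 pairs and below that of the b genes in 7 of the 8. The b genes are not a like case, because Mir181b-1 was not detected. The higher gene was the one on chromosome 1 for the a type and the one on chromosome 2 for the b type. By uniquely mapped reads, the duplicated types thus did not lead from the same cluster. Reads wholly inside the shared strand are on neither locus, here and in the other pairs. The ratios therefore do not give the part of each locus in the shared strand.

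The last question was whether the family differed between the pups. Mir181b-2 was higher in pup 1, Mir181d was slightly higher and Mir181a-1 slightly lower, while the other 3 genes did not pass the test. Each gene with at least 10 counts over both libraries was tested with a two-sided exact binomial test on its counts and the library totals, with Benjamini-Hochberg adjustment over 390 genes. The test compares these 2 libraries, asks only whether a difference exceeds counting error, and has no replicate check. Of the 6 members, 3 were called, 2 higher and 1 lower in pup 1. Over all 390 genes 30.3% were called, 14.4% higher and 15.9% lower in pup 1. With 6 members these counts do not set the family apart from the other genes.

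Mir181b-2, with 128 CPM in pup 1 and 84.6 CPM in pup 2, was 1.52-fold higher in pup 1. Its log2 ratio was 0.60 (0.40 to 0.80), with an adjusted p of 2.29e-08 in the exact binomial test. Mir181d had a log2 ratio of 0.18 (0.06 to 0.30), with an adjusted p of 0.0125 in the same exact test. Mir181a-1 had a log2 ratio of -0.17 (-0.29 to -0.06), with an adjusted p of 0.00994 in the same exact test. As point estimates, Mir181d was thus 1.13-fold higher and Mir181a-1 1.13-fold lower in pup 1, and the intervals reach further from equal levels.

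Mir181c had a log2 ratio of 0.07 (-0.01 to 0.15), Mir181a-2 of -0.24 (-0.55 to 0.07) and Mir181b-1 of 1.54 (-0.10 to 3.42), with adjusted p of 0.200, 0.295 and 0.128 in the exact binomial test. The interval of Mir181b-1 is wide because it rests on 11 and 5 counts, so that even a point estimate of 1.54 did not pass the test. Regardless of sign, the median log2 ratio was 0.21 over the 6 members, 0.19 over all tested genes and 0.12 over the 221 genes that had 100 or more counts in each library. The edgeR negative binomial exact test, which counts the spread between the pups as noise through a common coefficient of variation of 0.130, called 0 members. In that test 1 member, Mir181b-2, had an unadjusted p below 0.05, at 0.0361, and 0.513% of the 390 genes were called.

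**Figure D5:**
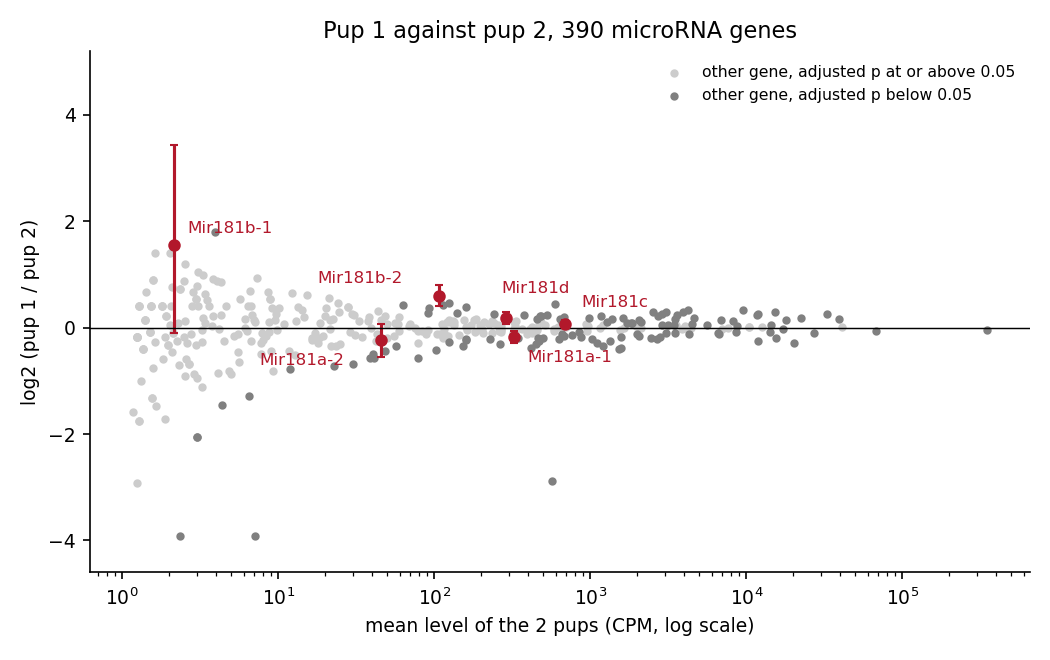
The log2 ratio of pup 1 over pup 2 is plotted against mean level in CPM on a log scale for the tested genes, with the 6 Mir181 genes in red and their exact 95% intervals. Mir181b-1 at 1.54 lies furthest from the zero line, with a wide interval that crosses it, and Mir181b-2 at 0.60 comes next. Closer to the line are Mir181a-2 at -0.24, Mir181d at 0.18, Mir181a-1 at -0.17 and Mir181c at 0.07. Only the intervals of Mir181b-2, Mir181d and Mir181a-1 do not cross the line.

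MicroRNAs otherwise known from lymphocyte development were looked at beside the family. Of the 15 listed genes, 14 have an entry in the table and all 14 were detected, while Mir142 has no entry. They summed to 37752 CPM in pup 1 and 33094 CPM in pup 2, or 25.4 and 23.3 times the Mir181 genes. Of the 14, 6 were higher in pup 1 in the exact binomial test and 1 was lower. Among the 6, Mir17, Mir18 and Mir20a lie in 1 cluster. Over all genes tested, 14.4% were higher and 15.9% lower, but many of these have few counts. Of the 221 genes with 100 or more counts in each library, tested by themselves, 112 were called in either direction. The calls in the list are therefore not read as a trait of it. The negative binomial exact test called 0 of the 14, and 0 had an unadjusted p below 0.05 in it. Their median log2 ratio was 0.12, against -0.00 over all genes tested. Mir17 had 10645 and 8501 CPM, Mir223, a myeloid microRNA, 8567 and 7846 CPM, and Mir15a 4422 CPM in both pups. The gene lower in pup 1 was Mir150, a microRNA of mature lymphocytes, with 40.9 and 55.3 CPM, a log2 ratio of -0.44 and an adjusted p of 0.0156 in the exact binomial test. It was named after its value was seen, and in the negative binomial exact test its adjusted p was 1. In mean level it was close to Mir181a-2, with 48.1 ± 10.2 CPM for Mir150 and 45.2 ± 5.25 CPM for Mir181a-2.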

How the data were processed

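Each library came as 1 table of raw counts of reads on microRNA genes, deposited by the authors. Its assembly is mm10 and its annotation GENCODE M4, per the notes beside the tables. The aligner, counting program and trimming were not given in the sources used here. The tables have no header. The 3 count columns were read as counts without regard to strand, on the gene strand and on the opposite strand. Each adds up, with the entries for unassigned reads, to the same total per library, which does not tell the columns apart. The column read as the gene strand held 3422622 and 4538427 counts on genes in pup 1 and pup 2. The column read as the opposite strand held 166702 and 213909. Gene-strand counts were used. They were 91.1% (pup 1) and 90.1% (pup 2) of the reads mapped to 1 place, and the 333144 and 499994 uniquely mapped reads not counted on the strand of a gene stayed out of the totals. Reads at several loci, 25.2% and 24.7% of all reads, are on no gene, and arms are not separated.

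Symbols, coordinates and hairpins for the search of shared windows came from GENCODE M21 (1894 of 1973 identifiers matched), and printed sequences from RefSeq on GRCm38.p6. RefSeq mature entries were found for 6 of 6 genes and hairpins for 5, all but Mir181c. The windows were compared among hairpins and not with the whole genome.

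Counts per 1000000, exact Clopper-Pearson and Poisson intervals and the exact binomial test were computed with scipy 1.17.1, and the negative binomial exact test with edgeR 4.0.16 (common dispersion from an intercept-only design). The threshold was an adjusted p of 0.05. A quasi-likelihood test could not be fitted, as there is 1 group. A chi-square test of the pups' counts over 390 genes gave 49.9 per degree of freedom, so the libraries are not the same library deposited again. Log2 ratios are pup 1 over pup 2.

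Members and gene lists were chosen with earlier results of these data known. Named genes were the 6 members, the gene next above and below each in mean level, and up to 3 of the highest genes of a list, and Mir150 and the genes at 0 were added as exceptions after their values were seen. Alternatives were counts without regard to strand, other library totals, TMM and DESeq2 1.42.0 size factors, other filters on low counts, the negative binomial test, counts per hairpin base and each pup alone.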

Additional observations from a re-analysis of the deposited data

How the results depend on the processing

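The order of the 3 clusters and the number of members detected were kept with counts made without regard to strand and per hairpin base, as far as each applied. The share of the family in the counts depends on the total it is divided by. It was 0.139% with counts made without regard to strand, 0.132% of uniquely mapped reads and 0.223% when Mir122 was left out, against 0.145% in the main analysis. Per hairpin base, the Mir181c to Mir181d ratio was 1.93, against 2.38 per hairpin. The number of members called between the pups was 3 with each of the other library totals, TMM, DESeq2 size factors and both other filters on low counts, and 0 with the negative binomial exact test. In that test Mir181b-2 (log2 ratio 0.60), Mir181d (0.18) and Mir181a-1 (-0.17) each had an adjusted p of 1, and the test differs from the main one in counting the spread between the pups as noise. Over all settings the log2 ratio of Mir181b-2 lay between 0.57 and 0.62, that of Mir181d between 0.15 and 0.20 and that of Mir181a-1 between -0.20 and -0.16. With the stricter filter Mir181b-1 was not tested. Leaving out a pup gives the value of the other pup, as printed with each result, and no comparison of pups can then be made. Such a value always lies within 1 SD of the mean of 2, so it says nothing of stability. With pup 1 alone all 6 genes had at least 10 counts, and with pup 2 alone 5 did. No paired analysis was possible because there is only 1 group. Depth limits Mir181b-1 most, at 11 and 5 counts. The number of reads of the a and b genes among those at several loci is not recorded.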
